A study of Mus musculus with 2 samples.

Results

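Immediate early and heat shock genes were followed through the cells of the developing mouse lacrimal gland. The set holds 35 genes of the 27775 features counted, 24 immediate early genes (the Fos and Jun families, Egr1, Egr2, Ier2, Ier3, Ier5, Atf3, Klf2, Klf4, Klf6, Btg1, Btg2, Zfp36, Dusp1, Nr4a1, Socs3, Myc, Gadd45b and Nfkbia) and 11 heat shock genes (Hspa1a, Hspa1b, Hspa8, Hspb1, Hsph1, Hsp90aa1, Hsp90ab1, Hspe1, Hspd1, Dnaja1 and Dnajb1). The genes were taken by symbol from a fixed list, with no threshold on a measured value, and all 35 had UMIs (unique molecular identifiers, 1 per captured RNA molecule) in both libraries. The question was how high these genes stood, and how often they were found together, in each kind of cell after the glands had been taken apart.

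Immediate early genes are transcribed within minutes of a stimulus, without new protein synthesis. Many encode transcription factors, such as the Fos and Jun proteins that pair to form AP-1, and others encode brakes on the same signals, such as the phosphatase Dusp1. Heat shock genes encode chaperones that fold or refold proteins, and the inducible ones are switched on by the factor Hsf1, which binds heat shock elements in their promoters. Warm enzyme digestion of live tissue is known to induce genes of both kinds, while several of the chaperones are also abundant in unstressed growing cells.

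The cells came from wild-type CD1 mice at embryonic day 16 (E16) and postnatal day 4 (P4), with 1 library at each stage and no treatment named in the labels. In both cases the glands were pooled, and they were digested with Liberase TM and DNaseI at 37 C for 20 to 40 min before straining, per the labels' protocol. How many animals went into a pool is not stated, and no sample was kept from digestion, so the level before dissociation was not measured. Library and stage cannot be told apart, no p-value was computed, and all intervals are 95% intervals for counting error only.

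The E16 library held 437 barcodes and the P4 library 687, of which 259 and 406 had at least 200 detected genes and were kept. These cells carried 1711606 and 1975814 UMIs, with medians of 5802 and 3767 per cell, and 0 barcodes were shared. Cells were clustered with the 35 genes left out of the clustering, and clusters were named from marker genes. Epithelial-like cells numbered 58 at E16 and 74 at P4, and mesenchyme-like cells 98 and 177. Macrophage-like cells numbered 2 and 47, and endothelial-like cells 10 and 22. Epcam was found in 93.1% and 90.5% of the epithelial-like cells, Col1a1 in 94.9% and 100% of the mesenchyme-like cells, C1qa in 100% of the P4 macrophage-like cells and Pecam1 in 86.4% of the P4 endothelial-like cells. Of 4 genes known from lacrimal epithelium, Sox10 and Aqp5 had UMIs in the epithelial-like cells of both libraries, while Ltf and Prol1 were at 0 at E16. Haemoglobin RNA (Hbb-bs) was found in 98.7% to 100% of these epithelial-like cells, a gene that epithelial cells are not known to express. The composition of a class differed between the 2 libraries, and its part in the comparisons of stages was not tested. At E16, 48 of the 58 epithelial-like cells were in a cluster led by Epcam, whereas at P4 this cluster held 9 cells, a cluster led by Wfdc18, Krt18 and Krt8 held 37 and a cluster led by the secretory Dcpp genes held 28. Of the mesenchyme-like cells, 55 at E16 were in a cluster led by A230065H16Rik, and 82 and 76 at P4 were in clusters led by Kera and by Mfap5.

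The summed level of the 24 immediate early genes was lower in epithelial-like cells than in stromal and immune cells. Levels are UMIs per 1000000 UMIs of the class (CPM) and carry no correction for transcript length, so they are compared between cells and not between genes. At E16 the sum was 8492 CPM (interval 8254 to 8734) in epithelial-like cells and 16431 CPM (16119 to 16749) in mesenchyme-like cells. At P4 it was 10752 CPM (10511 to 10998) in epithelial-like, 19903 (19597 to 20212) in mesenchyme-like, 21317 (20343 to 22326) in endothelial-like and 25259 (24430 to 26110) in macrophage-like cells. The P4 classes thus stood in order, with no overlap between their intervals. This order did not hold for each cluster inside a class. Of the P4 mesenchyme-like cells, the Kera-led cluster had 26123 CPM (25548 to 26706), above the endothelial-like class, and the Mfap5-led cluster 15735 (15349 to 16129). Per cell, the immediate early share of all UMIs had a median of 0.751% in epithelial-like and 1.65% in mesenchyme-like cells at E16, and of 1.03%, 1.86%, 2.27% and 2.58% in epithelial-like, mesenchyme-like, endothelial-like and macrophage-like cells at P4. The spread between cells was wide. In the E16 epithelial-like cells the share ran from 0.0661% to 2.88%, and in the P4 mesenchyme-like cells it ran from 0% to 8.53%.

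The 11 heat shock genes had another order. At E16 their sum was 7120 CPM (6903 to 7342) in epithelial-like cells and 4630 CPM (4465 to 4800) in mesenchyme-like cells, so the class low in immediate early RNA was the higher of the pair in chaperone RNA. At P4 the sums lay closer together, at 3291 CPM (3158 to 3428) in epithelial-like, 3628 (3498 to 3761) in mesenchyme-like, 3702 (3389 to 4036) in macrophage-like and 4712 (4260 to 5199) in endothelial-like cells. A shallow cluster led by Acta2 and Krt14, with 29 and 24 cells, scored as smooth muscle or myoepithelial-like and is called here by its leading genes. Epcam was found in 69.0% of its cells at E16 and 33.3% at P4. The cluster was low in immediate early RNA, at 5025 CPM (4456 to 5647) at E16 and 7929 (7008 to 8938) at P4. Its heat shock sums were 6540 CPM (5888 to 7244) and 5977 (5181 to 6860), and 80.4% of its Hspd1 UMIs at P4 were in 1 cell.

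**Figure D1:**
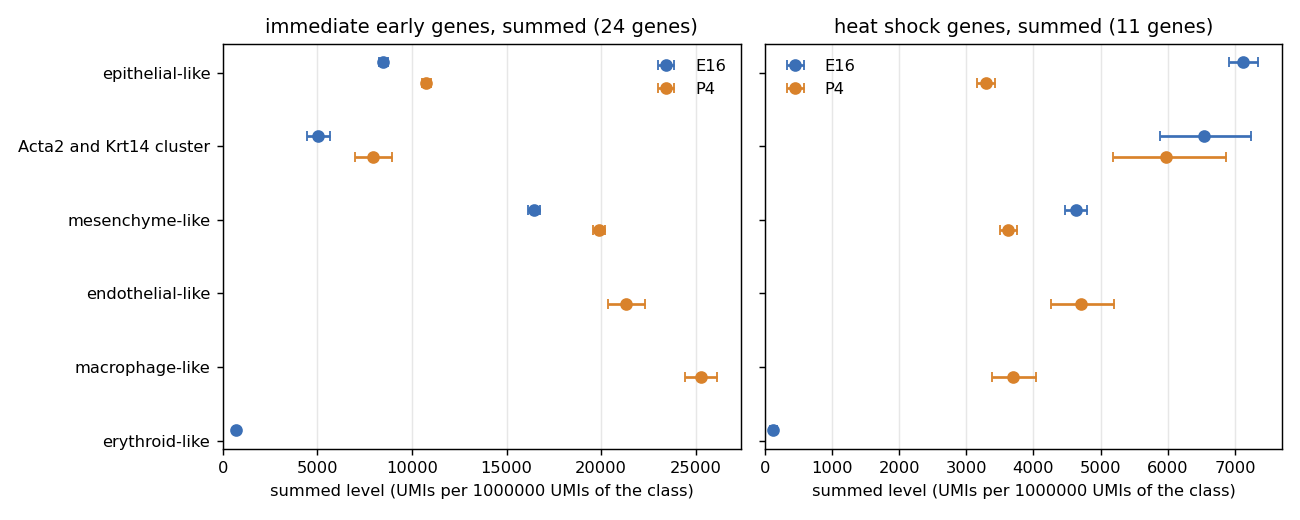
Summed level of the 24 immediate early genes and of the 11 heat shock genes, in CPM, for classes of at least 20 cells in a library; points are sums over cells and bars are exact 95% Poisson intervals for counting error. At P4 the immediate early sum is 7929 in the Acta2 and Krt14 cluster and runs from 10752 in epithelial-like to 25259 in macrophage-like cells, the E16 erythroid-like cells lie at 679, and the highest heat shock sum is that of the E16 epithelial-like cells at 7120.

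Mesenchyme-like cells exceeded epithelial-like cells of the same library in most immediate early genes. Summed, the ratio was 1.94 (1.87 to 2.0) at E16 and 1.85 (1.80 to 1.90) at P4. Among the 23 genes with at least 30 UMIs over both classes, 11 were at least 2-fold higher in mesenchyme-like cells at E16 and 1 was at least 2-fold lower, against 20.3% higher and 14.5% lower of all genes tested. The median of the 23 log2 ratios was 0.99, beside 0.05 for all genes. At P4, 9 of 23 were at least 2-fold higher and 0 were lower, beside 30.2% and 11.0% of all genes, with a median of 0.83 beside 0.39 for all genes. When the genes above 1% of UMIs, mainly the secretory Smgc and Dcpp genes of P4 epithelial-like cells, were left out of the totals, the P4 counts were 6 higher and 1 lower, beside 22.7% and 17.4% of all genes, and the median of all genes was 0.03. Of the higher genes, 7 were at least 2-fold higher in both libraries, which is 63.6% of the E16 list and 77.8% of the P4 list: Fos, Junb, Klf2, Klf4, Dusp1, Socs3 and Gadd45b. The same overlap was not counted over all genes, so these shares have no background.

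Of the AP-1 genes, Fos, Jun and Junb followed this order in both libraries. Fos, the inducible partner of AP-1, stood at 1260 CPM in epithelial-like and 2566 CPM in mesenchyme-like cells at E16, and at 908 and 2412 CPM at P4, with ratios of 2.04 (1.87 to 2.23) and 2.66 (2.43 to 2.91). Jun, which pairs with Fos, stood at 1223 and 2186 CPM at E16 and at 1094 and 2342 CPM at P4, with ratios of 1.79 (1.63 to 1.96) and 2.14 (1.97 to 2.33). Junb, a Jun relative that can also restrain Jun, stood at 1354 and 2739 CPM at E16 and at 2149 and 4517 CPM at P4, close to 2-fold in both libraries (2.02 and 2.10). Summed over each class, all 3 genes were therefore higher in mesenchyme-like cells at both stages, and their intervals did not touch 1. The epithelial-like clusters were not alike in this. In the Wfdc18-led cluster Fos, Jun and Junb stood at 1966, 3043 and 2684 CPM at E16 and at 1307, 1580 and 3368 CPM at P4. Of these, only Jun at E16 lay above the mesenchyme-like level. Fosb, a Fos relative, had 159 and 471 CPM in epithelial-like and mesenchyme-like cells at E16, and 139 and 248 CPM at P4. Jund, the Jun member expressed without a stimulus in many tissues, behaved differently in the 2 libraries, at 480 and 1235 CPM at E16 (ratio 2.57) and 1140 and 1258 CPM at P4 (ratio 1.10, 1.01 to 1.21). The P4 ratio of Jund fell below 1 when the genes above 1% of UMIs were left out of the totals. Fosl2 had only 16 UMIs in all kept E16 cells and 21 in all kept P4 cells, too few to compare.

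Among the other transcription factors, the Krüppel-like factors Klf2 and Klf4 separated the classes widely. Klf2, an early response gene best known from endothelium and lymphocytes, stood at 68.3 CPM in epithelial-like and 451 CPM in mesenchyme-like cells at E16, and at 24.2 and 1233 CPM at P4. The ratios were 6.60 (4.71 to 9.48) and 51.0 (31.7 to 87.9). With each cell thinned to 1000 UMIs, Klf2 was found in 0 of 72 P4 epithelial-like cells, which allows a share of up to 4.17% with a UMI at that depth, and in 49.4% of the mesenchyme-like cells. Without thinning it was found in 17.6% of the 74 epithelial-like and 74.6% of the 177 mesenchyme-like cells. Klf4 followed the same order at lower counts, with 50.8 and 196 CPM at E16 and 48.4 and 212 CPM at P4, ratios of 3.85 and 4.38. Klf6 had 249 and 440 CPM at E16 and 218 and 381 CPM at P4, ratios of 1.77 and 1.75. Egr1, a zinc finger factor induced by growth factor signals, had 384 and 673 CPM at E16 and 464 and 888 CPM at P4, ratios of 1.76 and 1.92. Its relative Egr2 had 91.1 and 110 CPM at E16 and 51.2 and 96.1 CPM at P4, and at E16 the interval of its ratio (0.828 to 1.76) held 1.

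A few factors did not follow this order. Atf3, a stress-induced factor of the ATF family, had 182 and 186 CPM in epithelial-like and mesenchyme-like cells at E16, a ratio of 1.02 (0.780 to 1.34), and 278 and 176 CPM at P4, a ratio of 0.635 (0.508 to 0.792). Myc, a growth regulator, was the 1 immediate early gene at least 2-fold lower in mesenchyme-like cells at E16, at 92.9 against 29.8 CPM (ratio 0.320, 0.179 to 0.550). At P4 Myc had 22 UMIs in epithelial-like cells (31.3 CPM) and 31 in mesenchyme-like cells (38.2 CPM), and the interval of the ratio held 1. Nr4a1, an orphan nuclear receptor, had ratios of 1.28 (1.0 to 1.63) and 1.48 (1.19 to 1.86).

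Several genes that brake signalling were also unequal. Socs3, the feedback inhibitor of cytokine receptors that signal through JAK and STAT, stood at 31.5 and 211 CPM at E16 and at 34.2 and 323 CPM at P4, ratios of 6.70 (4.08 to 11.7) and 9.45 (6.21 to 15). Dusp1, which dephosphorylates MAP kinases, stood at 315 and 795 CPM at E16 and 421 and 1323 CPM at P4, ratios of 2.52 and 3.14. Gadd45b, a stress sensor upstream of p38 and JNK signalling, rested on 24 and 19 UMIs in epithelial-like cells and had ratios of 2.91 (1.82 to 4.80) and 5.65 (3.47 to 9.70). These 3 feedback genes were higher in mesenchyme-like cells in both libraries. Zfp36, which destabilises inflammatory mRNAs, had 63.1 and 125 CPM at E16 and 108 and 165 CPM at P4. Btg2, an antiproliferative gene, had 219 and 471 CPM at E16 and 273 and 382 CPM at P4, while its relative Btg1 rested on 14 and 20 UMIs in epithelial-like cells. Nfkbia, the inhibitor of NF-kB that is itself an NF-kB target, was on opposite sides of 1 in the 2 libraries, with 519 and 927 CPM at E16 (ratio 1.79) and 1316 and 1094 CPM at P4 (ratio 0.831, 0.757 to 0.912). Of the Ier genes, Ier2 had ratios of 1.48 and 1.31 and Ier5 had 1.59 and 2.40, whereas Ier3, a survival gene and NF-kB target, had 0.918 (0.568 to 1.48) and 0.691 (0.507 to 0.938).

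**Figure D2:**
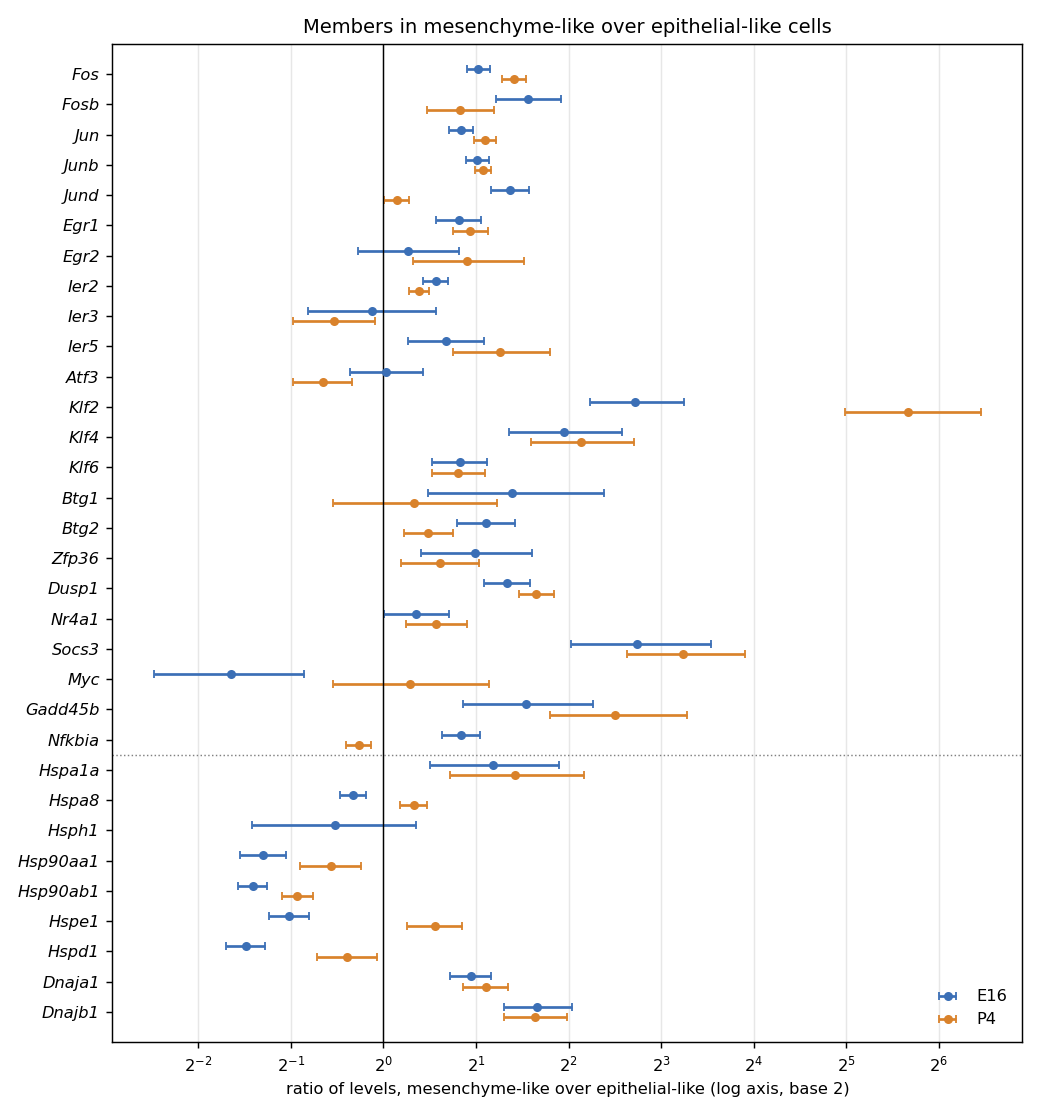
Ratio of the level in mesenchyme-like over epithelial-like cells for each gene with at least 30 UMIs over both classes, on a log axis of base 2; blue is E16, orange is P4, bars are exact 95% intervals for counting error, and the dotted line parts immediate early (top) from heat shock genes. Klf2 and Socs3 lie furthest to the right, at 51.0 and 9.45 at P4, and the E16 ratios of Hsp90aa1, Hsp90ab1, Hspe1 and Hspd1 lie between 0.356 and 0.493.

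A list of 55 other early response genes was compared in the same way. At E16, 7 of its 31 genes tested (22.6%) were at least 2-fold higher in mesenchyme-like cells and 3 (9.68%) lower, near the 20.3% and 14.5% of all genes. At P4 14 of 28 were higher and 2 lower, beside 30.2% and 11.0% of all genes, and with the genes above 1% of UMIs out of the totals 12 and 2, beside 22.7% and 17.4%. Cxcl1, a neutrophil chemokine, stood at 26.3 CPM in epithelial-like and 180 CPM in mesenchyme-like cells at E16. Ccl2, a monocyte chemokine, stood at 22.8 and 359 CPM at P4, and Cyr61, a matrix-associated immediate early protein, at 509 and 1872 CPM. On the other side, the zinc finger gene Egr4 had 61.3 CPM in epithelial-like and 7.83 CPM in mesenchyme-like cells at E16, and the phosphatase gene Dusp5 had 51.2 and 6.16 CPM at P4. RNA of the other class was present at low levels on both sides. The 14 mesenchyme markers summed to 482 and 1241 CPM in the epithelial-like cells of E16 and P4 (13 with UMIs, Twist1 at 0), against 18982 and 47603 CPM in mesenchyme-like cells, and their part in the ratios was not tested.

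Heat shock genes lay on both sides between the same classes. At E16, 2 of 9 genes tested (22.2%) were at least 2-fold higher in mesenchyme-like cells and 4 (44.4%) were lower, against 20.3% and 14.5% of all genes, with a median log2 ratio of -0.52. The lower genes were the HSP90 and the mitochondrial chaperonin genes. Hsp90ab1, the constitutive cytosolic HSP90, stood at 2020 CPM in epithelial-like and 758 CPM in mesenchyme-like cells (ratio 0.375, 0.337 to 0.418), and its inducible relative Hsp90aa1 at 767 and 312 CPM (0.406, 0.342 to 0.481). Hspd1 (HSP60), the mitochondrial chaperonin, stood at 1116 and 398 CPM (0.356, 0.307 to 0.413), and its lid Hspe1 (HSP10) at 890 and 438 CPM (0.493, 0.424 to 0.571). The higher genes were Dnajb1, the HSP40 co-chaperone induced by heat, at 144 against 454 CPM (3.16, 2.47 to 4.09), and the inducible HSP70 gene Hspa1a, at 45.6 against 103 CPM (2.27, 1.42 to 3.72). Dnaja1, another HSP40, stood at 436 and 838 CPM (1.92, 1.65 to 2.24). Hspa8, the constitutive HSP70, lay on the other side from Hspa1a, at 1608 and 1279 CPM.

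At P4 the genes at least 2-fold higher in mesenchyme-like cells were Dnajb1, Dnaja1 and Hspa1a. They were 3 of 8 genes tested (37.5%), near the 30.2% of all genes, and 0 were lower, beside 11.0%. With the genes above 1% of UMIs out of the totals, 2 were higher and 1 lower, beside 22.7% and 17.4%. Dnajb1 stood at 137 and 425 CPM (3.11, 2.48 to 3.94), Dnaja1 at 286 and 615 CPM (2.15, 1.82 to 2.54), and Hspa1a at 32.7 and 87.5 CPM (2.67, 1.65 to 4.48). Hsp90ab1 stood at 1143 and 600 CPM (0.525, 0.468 to 0.588) and Hsp90aa1 at 249 and 168 CPM (0.673, 0.534 to 0.847). Hspd1 had 249 and 190 CPM (0.762, 0.610 to 0.952), whereas Hspe1 was on the other side of 1, at 218 and 319 CPM (1.47, 1.20 to 1.80). Hspa8 had 951 and 1192 CPM, and its ratio of 1.26 fell below 1 when the genes above 1% of UMIs were left out of the totals. The summed heat shock ratio was 0.650 (0.620 to 0.682) at E16 and 1.10 (1.04 to 1.16) at P4. The P4 sum turned to 0.854 with those genes out of the totals, 0.869 with every cell weighted equally, 0.950 with each library clustered alone and 0.768 without the Dcpp-led cluster, so its direction did not hold over these settings. Hspb1, a small heat shock protein, had 20 and 8 UMIs at E16 and 9 and 7 UMIs at P4, and Hsph1, an HSP110 exchange factor, had 27 and 21 UMIs and 4 and 14 UMIs, in epithelial-like and mesenchyme-like cells. Hspa1b had 12 and 13 UMIs in all kept cells of E16 and P4.

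Among 43 other chaperone genes the counts and the sum pointed different ways at E16. In mesenchyme-like cells, 2 of 32 genes tested (6.25%) were at least 2-fold higher and 11 (34.4%) lower, beside 20.3% and 14.5% of all genes, but their summed level was 11720 CPM against 9769 in epithelial-like cells (1.20, 1.16 to 1.24). Among the lower were the HSP90 co-chaperone Fkbp4 (185 CPM against 620) and the chaperonin subunit gene Cct2 (130 against 405). Serpinh1, the collagen chaperone, was among the higher ones, at 3905 against 801 CPM. At P4, 6 of 33 (18.2%) were higher and 3 (9.09%) lower, beside 30.2% and 11.0% of all genes, with a summed ratio of 1.98 (1.92 to 2.05). With the genes above 1% of UMIs out of the totals the counts were 3 and 4, beside 22.7% and 17.4%. The small heat shock protein gene Cryab, at 54.2 CPM in mesenchyme-like and 445 in epithelial-like cells, was among the lower ones. Of 14 endoplasmic reticulum stress genes tested, 3 (21.4%) were higher and 1 lower at E16, near the share of all genes, and 6 higher and 1 lower at P4 (4 and 1 with the other totals). Ddit3, which encodes the factor CHOP, stood at 202 CPM in mesenchyme-like and 45.6 CPM in epithelial-like cells at E16.

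Most heat shock genes of epithelial-like cells were lower at P4 than at E16. Their sum was 7120 CPM at E16 and 3291 CPM at P4, a ratio of P4 over E16 of 0.462 (0.439 to 0.487). Of 9 genes tested, 0 were at least 2-fold higher at P4 and 4 were lower, against 7.10% and 29.0% of all genes, and all 9 ratios were below 1. Their median log2 ratio was -0.82, beside -0.56 for all genes, so that relative to all genes it was -0.27. The 4 genes were Hspd1, at 1116 and 249 CPM (0.223, 0.188 to 0.264), Hspe1, at 890 and 218 CPM (0.245, 0.203 to 0.294), Hsp90aa1, at 767 and 249 CPM (0.325, 0.271 to 0.388), and Hsph1, with 27 and 4 UMIs (0.120, 0.0306 to 0.345). Hsp90ab1 was at 0.566 (0.516 to 0.620), Hspa8 at 0.591 (0.534 to 0.654) and Dnaja1 at 0.656 (0.542 to 0.793). Dnajb1 had an interval that held 1 (0.951, 0.701 to 1.29), as did Hspa1a (0.719, 0.392 to 1.31), and Dnajb1 lay above 1 with the genes over 1% of UMIs out of the totals. In the class as a whole the HSP90 and chaperonin genes were thus lower at P4, and no difference was resolved for the heat-induced Dnajb1 and Hspa1a. Within clusters the falls were uneven. Hsp90ab1 stood at 2036 and 858 CPM at E16 and P4 in the Epcam-led and at 1881 and 1822 CPM in the Wfdc18-led cluster. In the same order, Hsp90aa1 had 693 and 353 CPM and 1419 and 377 CPM. Hspd1 had 1187 and 606 CPM and 496 and 287 CPM, and Hspe1 947 and 732 CPM and 393 and 234 CPM. In mesenchyme-like cells the sum was 4630 and 3628 CPM (0.784, 0.744 to 0.825). There, 0 of 9 genes were at least 2-fold higher and 1 was lower, against 6.93% and 13.6% of all genes. That gene was Hspd1, at 398 and 190 CPM (0.477, 0.388 to 0.585), followed by Hsp90aa1, at 312 and 168 CPM (0.538, 0.429 to 0.672). The lower heat shock sum of the mesenchyme-like class was not shared by all its clusters. The ratio was 0.67 (0.56 to 0.79) in the A230065H16Rik-led and 0.84 (0.72 to 0.98) in the Dcn-led cluster. It was 1.03 (0.894 to 1.19) in the Kera-led and 1.6 (1.22 to 2.16) in the Mfap5-led cluster, the last with 5 and 76 cells.

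Secretory RNA filled a large part of the P4 epithelial-like total and moved these ratios. Smgc, Dcpp1, Dcpp2 and Dcpp3 took 24.9% of the UMIs of that class at P4 and 0.00315% at E16. With these genes out of the totals the heat shock ratio was 0.615 and the median of all genes was -0.14. Within clusters present at both stages the heat shock ratio was 0.645 (0.553 to 0.748) in the Epcam-led cluster (48 and 9 cells) and 0.705 (0.632 to 0.789) in the Wfdc18-led cluster (10 and 37 cells). In these clusters the heat shock sum was therefore also lower at P4, by less than in the class as a whole. The sum also moved with depth among E16 epithelial-like cells, at 5480 CPM in the shallower 29 cells and 7613 CPM in the deeper 29, and its part in the ratio was not tested.

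Of the 35 genes, 29 had a RefSeq promoter window (GRCm38.p6), searched here over the 250 bases before the start. A pair of facing heat shock units, GAANNTTC or TTCNNGAA on either strand, was found in 7 of the 8 heat shock genes with a window (not in Dnajb1), in 3 of 21 immediate early genes and in 14.5% of all 27025 genes with a window. A run of 3 units, GAANNTTCNNGAA or TTCNNGAANNTTC, which contains such pairs, was found in 0.514% of genes and, among the members, in Hspd1 and Hspe1. These neighbours lie head to head on chromosome 1 with RefSeq starts 215 bases apart, so both windows hold the same element. In Hspe1 it consists of 2 overlapping runs of 3 units, both in capitals below. The stretches below are shown for the Hspe1 run and for Hspa1a and Dnaja1, 2 of the P4 genes higher in mesenchyme-like cells, with Hspa1b beside its near copy, and capitals mark the heat shock pairs or run. Hspa1a and Hspa1b are near-identical, with 139 of the 140 printed bases the same and 247 of 250 in the window, and reads could not be assigned to them with certainty.
Hspe1, chr1:55088053-55088082, plus strand, 30 bases around the run: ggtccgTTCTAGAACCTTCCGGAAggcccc
Hspa1a, chr17:34972157-34972296, minus strand: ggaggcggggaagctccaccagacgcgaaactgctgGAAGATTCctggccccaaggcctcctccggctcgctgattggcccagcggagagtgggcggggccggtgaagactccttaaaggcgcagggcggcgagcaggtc
Hspa1b, chr17:34959239-34959378, minus strand: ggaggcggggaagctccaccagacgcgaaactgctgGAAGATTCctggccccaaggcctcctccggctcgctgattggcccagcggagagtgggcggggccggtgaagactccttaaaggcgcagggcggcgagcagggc
Dnaja1, chr4:40722333-40722362, plus strand, 30 bases around the pair: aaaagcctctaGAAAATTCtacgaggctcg

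The head-to-head pair Hspe1 and Hspd1 had like ratios between stages in epithelial-like cells (0.245 and 0.223) and unlike ones in mesenchyme-like cells (0.728, 0.612 to 0.865, and 0.477, 0.388 to 0.585). In cells thinned to 1000 UMIs both were found in 17 of 58 epithelial-like cells at E16, where the product of their shares gives 15.5, and in 10 of 72 at P4, where it gives 7.0. In mesenchyme-like cells both were found in 4 of 96 at E16 (6.50 from the product) and 11 of 176 at P4 (8.86). At these counts joint detection of the pair could not be set apart from the product.

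Summed immediate early RNA was higher at P4 in both classes. In epithelial-like cells the sum was 8492 CPM at E16 and 10752 CPM at P4, a ratio of 1.27 (1.22 to 1.31), and in mesenchyme-like cells 16431 and 19903 CPM, a ratio of 1.21 (1.18 to 1.24). Of 23 genes tested in epithelial-like cells, 3 were at least 2-fold higher at P4 and 3 lower, against 7.10% and 29.0% of all genes, and with the genes above 1% of UMIs out of the totals 6 were higher and 2 lower, beside 11.8% and 15.5%. Their median log2 ratio was 0.11, which was 0.67 above that of all genes. In mesenchyme-like cells 1 of 23 was higher and 0 lower, against 6.93% and 13.6%, with a median of 0.11 beside -0.18 for all genes.

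The 3 higher genes of epithelial-like cells were Nfkbia, at 519 and 1316 CPM (2.54, 2.22 to 2.90), Jund, at 480 and 1140 CPM (2.37, 2.07 to 2.73), and Ier3, at 64.8 and 141 CPM (2.17, 1.48 to 3.26). The 3 lower were Myc, at 92.9 and 31.3 CPM (0.337, 0.195 to 0.564), Klf2, at 68.3 and 24.2 CPM (0.354, 0.188 to 0.641), and Ier5, at 137 and 62.6 CPM (0.458, 0.309 to 0.671). Of the higher genes, Nfkbia and Ier3 are known NF-kB targets. Junb was at 1.59 (1.45 to 1.73), Atf3 at 1.52 (1.19 to 1.95) and Dusp1 at 1.34 (1.11 to 1.62), while Fos was at 0.721 (0.647 to 0.803). The direction of Fosb, Jun, Klf4, Klf6 and Nr4a1, which were between 0.875 and 0.952, turned with the genes above 1% of UMIs out of the totals. Not all epithelial-like ratios held within clusters. Jund stood at 363 and 379 CPM at E16 and P4 in the Epcam-led and at 1504 and 1724 CPM in the Wfdc18-led cluster. In the same order, Ier3 had 52.7 and 25.2 CPM (1 UMI at P4) and 171 and 247 CPM. Atf3 had 104 and 101 CPM and 872 and 470 CPM, and Myc 97.6 and 101 CPM and 51.3 and 42.5 CPM. Nfkbia was higher at P4 in both clusters, at 480 and 909 CPM and at 855 and 2170 CPM. In mesenchyme-like cells the 1 higher gene was Klf2, at 451 and 1233 CPM (2.73, 2.40 to 3.13). Dusp1, at 795 and 1323 CPM, and Junb, at 2739 and 4517 CPM, were at 1.66 and 1.65, Socs3 was at 1.53 (1.24 to 1.89) and Egr1 at 1.32 (1.17 to 1.49). Fosb, at 471 and 248 CPM, was at 0.525 (0.437 to 0.630), although Fos (0.94, 0.880 to 1.0) and Jun (1.07, 0.999 to 1.15) had intervals that held 1. Klf2 thus lay on opposite sides of 1 in the 2 classes, and the AP-1 genes did not move as a block. In the Epcam-led and in the Wfdc18-led cluster the Klf2 intervals of the 2 stages overlapped. The mesenchyme-like ratio of Klf2 was not shared by all clusters. Klf2 stood at 651 (465 to 887) and 698 CPM (606 to 799) in the Kera-led cluster at E16 and P4, and at 439 (373 to 513) and 325 (178 to 546) in the A230065H16Rik-led cluster. It was higher at P4 in the Mfap5-led cluster, at 672 (384 to 1090) and 1803 (1674 to 1940), with 5 and 76 cells, and in the Dcn-led cluster, at 383 (301 to 480) and 825 (623 to 1071). The mesenchyme-like ratio of Fosb was not shared by all clusters either. Fosb stood at 570.5 and 116 CPM in the A230065H16Rik-led and 368 and 191 in the Dcn-led cluster. In the Kera-led cluster it had 391 and 402 CPM, and in the Mfap5-led 42.0 (1 UMI) and 155.

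**Figure D3:**
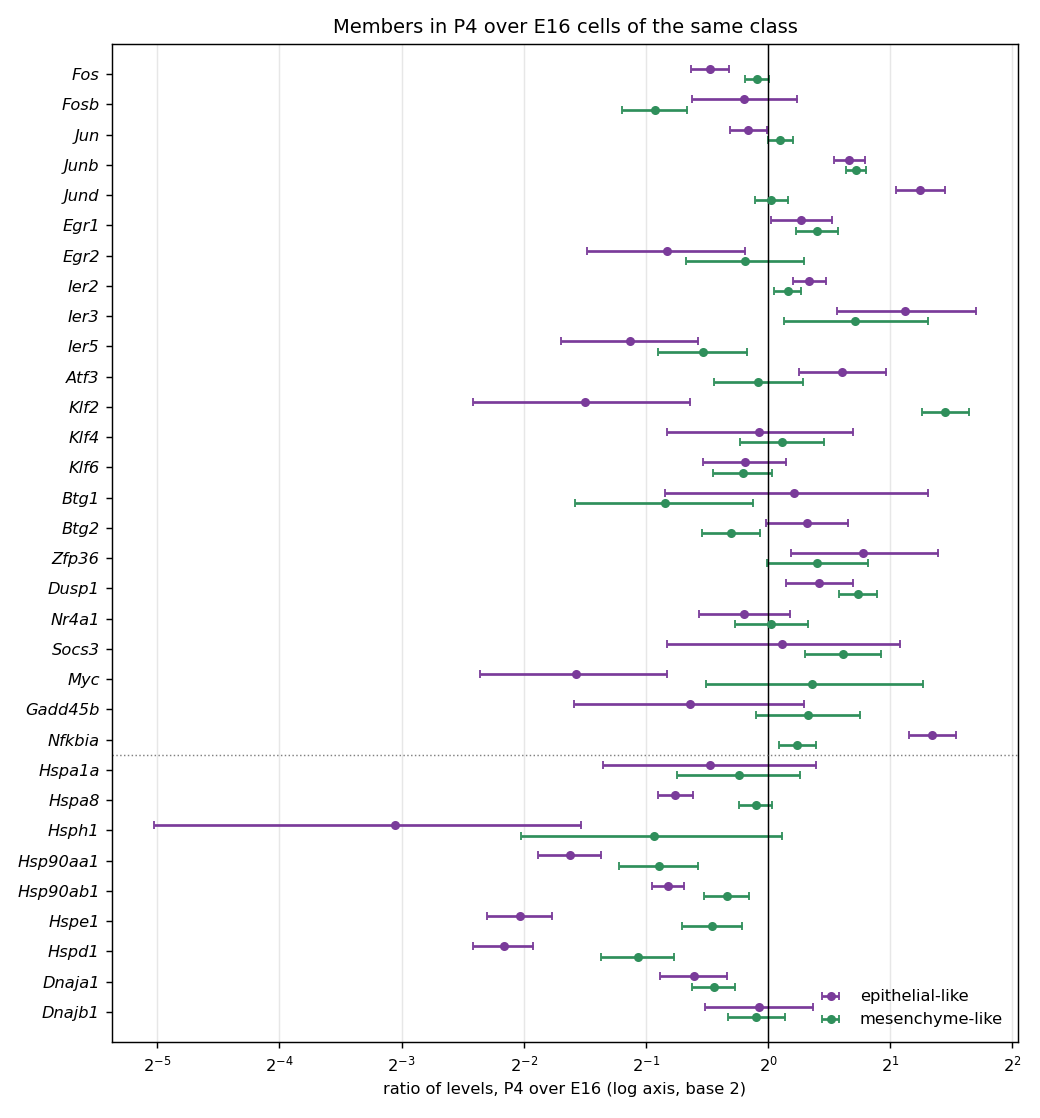
Ratio of the P4 over the E16 level for each gene with at least 30 UMIs over both libraries of the class, on a log axis of base 2, for epithelial-like and mesenchyme-like cells; bars are exact 95% intervals for counting error and the dotted line parts immediate early from heat shock genes. In epithelial-like cells Nfkbia lies at 2.54 and Hspd1 at 0.223, and Klf2 lies at 0.354 there and at 2.73 in mesenchyme-like cells.

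In the list of other early response genes, 3 of 28 tested (10.7%) were at least 2-fold higher in P4 epithelial-like cells and 9 (32.1%) lower, near the 7.10% and 29.0% of all genes. Cxcl2, a neutrophil chemokine, had 0 UMIs at E16 and 75.4 CPM at P4, which is at least 14.4-fold higher against a floor of 3 UMIs over the class, and Cxcl1 stood at 26.3 and 176 CPM. Dusp6, a phosphatase specific for ERK, stood at 138 and 27.0 CPM. In mesenchyme-like cells 3 of 31 (9.68%) were higher and 7 (22.6%) lower, beside 6.93% and 13.6%. Ccl2 stood there at 65.8 CPM at E16 and 359 CPM at P4, Cxcl1 at 180 and 510 CPM, and Dusp6 at 72.0 and 19.7 CPM. Chemokine genes were among the higher and Dusp6 among the lower in both classes. Of the other chaperones, 3 of 29 (10.3%) were higher and 12 (41.4%) lower in epithelial-like cells, with Cryab at 84.1 and 445 CPM and the HSP110 gene Hspa4 at 172 and 34.2 CPM, and 2 of 35 were higher and 2 lower in mesenchyme-like cells. Of 14 endoplasmic reticulum stress genes, 3 (21.4%) were higher and 6 (42.9%) lower in epithelial-like cells and 0 higher and 2 (14.3%) lower in mesenchyme-like cells. With the genes above 1% of UMIs out of the totals, the lower genes of epithelial-like cells were 7 of the early response, 5 of the chaperone and 2 of the endoplasmic reticulum list, beside 15.5% of all genes. Xbp1, a factor of the unfolded protein response that is high in secretory cells, stood at 116 and 330 CPM in epithelial-like cells, and Hspa5, the endoplasmic reticulum HSP70, at 1183 and 511 CPM.

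The epithelial-like class was not uniform in immediate early RNA. At E16 the 10 cells of the Wfdc18-led cluster, which also had Krt18, Krt8 and Cldn3 among their leading genes, had 19130 CPM (18025 to 20284), against 7277 CPM (7045 to 7514) in the 48 cells of the Epcam-led cluster, a ratio of 2.63 (2.46 to 2.81). At P4 the ratio of these clusters was 1.83 (1.64 to 2.04), and the Wfdc18-led cluster had 4.92 times the level of the Dcpp-led cluster (3363 CPM, 3154 to 3582). Heat shock RNA did not differ in this way between the first pair, with ratios of 0.938 (0.843 to 1.04) at E16 and 1.03 (0.881 to 1.20) at P4, and was 3.93 times as high in the Wfdc18-led as in the Dcpp-led cluster. The E16 difference was wide in several genes. Klf6 stood at 1590 CPM in the Wfdc18-led and 95.7 CPM in the Epcam-led cluster, Atf3 at 872 and 104 CPM, Dusp1 at 1504 and 180 CPM, and Jun at 3043 and 1015 CPM. Of the Klf6 UMIs of E16 epithelial-like cells, 31.0% were in 1 cell. Klf2, with 4 UMIs in the Wfdc18-led cluster (68.4 CPM against 68.3), and Socs3, with 0, were not among these genes.

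Set against the Wfdc18-led cluster alone, the order of the classes changed. Mesenchyme-like cells had 0.859 (0.807 to 0.914) of its immediate early level at E16 and 1.20 (1.17 to 1.24) times its level at P4, and their heat shock level was 0.689 and 0.766 of that of the cluster. Within the Wfdc18-led cluster the immediate early ratio of P4 over E16 was 0.866 (0.812 to 0.923), on the other side of 1 from the whole class, whereas in the Epcam-led cluster it was 1.25 (1.11 to 1.39). Within the mesenchyme-like clusters the ratio was 1.66 (1.55 to 1.78) in the Kera-led, 1.95 (1.69 to 2.27) in the Mfap5-led, 1.23 (1.15 to 1.31) in the Dcn-led and 0.997 (0.924 to 1.07) in the A230065H16Rik-led cluster, the last with 55 and 7 cells and the Mfap5-led with 5 and 76. The direction of the stage ratio thus differed between the epithelial-like clusters, and the part of class composition in the stage ratios was not tested.

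**Figure D4:**
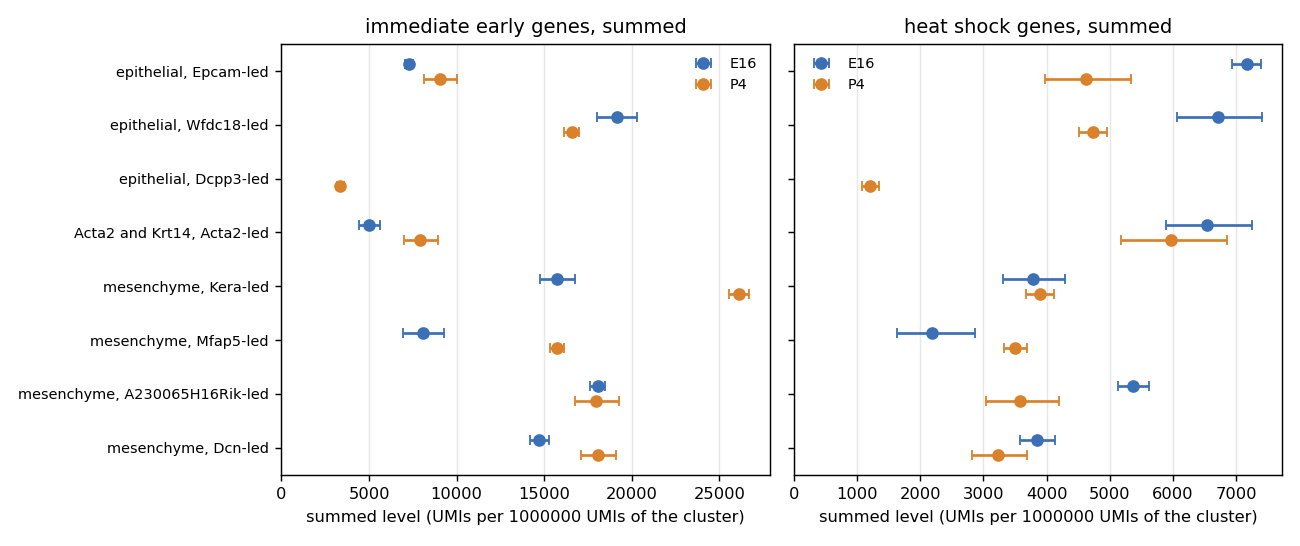
Summed immediate early and heat shock levels, in CPM of the cluster, in the clusters that make up the epithelial-like and mesenchyme-like classes at E16 and P4; points are sums over cells and bars exact 95% Poisson intervals. The Wfdc18-led epithelial cluster lies at 19130 at E16 and the Epcam-led cluster at 7277, and the Dcpp-led cluster, seen at P4 alone, lies at 3363.

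Macrophage-like cells could be described at P4 alone, since E16 held 2 of them. Their immediate early sum was 1.27 (1.22 to 1.32) times that of P4 mesenchyme-like cells, and the heat shock sum 1.02 (0.927 to 1.12) times. Of 23 immediate early genes, 4 were at least 2-fold higher and 3 were lower, beside 12.7% and 33.5% of all genes (6 and 3, beside 14.1% and 30.1%, with the genes above 1% of UMIs out of the totals). Their median log2 ratio was 0.22, beside -0.47 for all genes. The 4 were Ier3 (619 CPM against 97.3, ratio 6.37), Ier5 (418 against 150, 2.78), Zfp36 (389 against 165, 2.36) and Dusp1 (3061 against 1323, 2.31), and Nfkbia followed at 2168 against 1094 CPM (1.98, 1.73 to 2.26). The 3 lower were Socs3, with 5 UMIs in macrophage-like cells (0.112, 0.0359 to 0.264), Nr4a1 (101 against 266 CPM, 0.379) and Egr2, with 6 UMIs and an interval that held 1. Fos, Jun, Jund and Egr1 had ratios between 0.944 and 0.994, and their side of 1 turned with the other totals. Junb stood at 5265 against 4517 CPM (1.17, 1.08 to 1.26). Of 8 heat shock genes 1 was at least 2-fold higher and 0 lower: Hspa1a, at 195 against 87.5 CPM (2.22, 1.37 to 3.51). Dnajb1 stood at 749 against 425 CPM, with 41.4% of its macrophage-like UMIs in 1 cell. In the list of other early genes 8 of 23 were higher and 8 lower, with Cxcl2 at 2823 against 20.9 CPM and Ccl2 at 3184 against 359 CPM, and among other chaperones 2 of 30 were higher and 6 lower, with Hmox1, a haem-degrading stress enzyme of macrophages, at 1239 against 86.2 CPM. Of 14 endoplasmic reticulum stress genes 1 was higher and 1 lower.

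The members were also ranked by the class that held their highest level. All genes were not ranked in this way, so the counts that follow have no background share. Ranked among the 5 classes of at least 20 cells at P4, the highest level of 9 of the 24 immediate early genes was in endothelial-like cells, of 8 in macrophage-like cells, of 5 in mesenchyme-like cells and of 1 each in the epithelial-like class and the Acta2 and Krt14 cluster. For most genes the leading pair of classes had overlapping intervals: the intervals were apart for 1 of the 9 (Klf2), for 4 of the 8 (Ier5, Klf6, Dusp1 and Nfkbia) and for 0 of the 5. Klf2 stood at 2315 CPM in endothelial-like cells (2001 to 2663), 1635 in macrophage-like and 1233 in mesenchyme-like cells, an order with no overlap between intervals. Junb stood at 5590 CPM (5097 to 6119) and 5265 (4890 to 5661) in endothelial-like and macrophage-like cells, which do not differ beyond these intervals. Of the Egr1 UMIs of endothelial-like cells, 50.0% were in 1 cell. At E16, with 3 such classes when erythroid-like cells are left aside, mesenchyme-like cells held the highest level of 22 of the 24, 18 of them with intervals apart from the next class. Of the 11 heat shock genes, 5 were highest in epithelial-like cells, 3 in mesenchyme-like cells and 3 in the Acta2 and Krt14 cluster at E16, and at P4 the epithelial-like, endothelial-like and Acta2 and Krt14 groups each held 3 and macrophage-like cells 2. The intervals were apart for 2, 3 and 0 of these at E16 and for 1, 0, 2 and 2 at P4. Below the limit of 20 cells, the 18 T or innate lymphoid-like cells of P4 had 12886 CPM of Junb (387 UMIs) and the highest immediate early sum of the named classes, 29402 CPM (27494 to 31407).

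Cells were also counted by how many immediate early genes they held, a number that rises with the level of each gene alone. No share was computed for genes detected independently, here or for the heat shock genes below. After thinning each cell to 1000 UMIs, 3 or more of the 24 genes were found in 74.1% of E16 epithelial-like cells (61.0% to 84.7%, n = 58) and 96.9% of mesenchyme-like cells (91.1% to 99.4%, n = 96). At P4 the shares were 83.3% (72.7% to 91.1%, n = 72) and 94.9% (90.5% to 97.6%, n = 176), with 97.8% of 46 macrophage-like and 90.5% of 21 endothelial-like cells. The median number of the 24 genes per cell was 5 and 8 at E16 and 6 and 9 at P4 in epithelial-like and mesenchyme-like cells. Without thinning the 4 shares were 96.6%, 98.0%, 97.3% and 99.4%, all near their upper limit. The unthinned medians were 13 and 17 genes at E16 and 11.5 and 14 at P4 in epithelial-like and mesenchyme-like cells. Thinning left out 0 and 2 of the E16 cells and 2 and 1 of the P4 cells of these classes. Erythroid-like cells, whose UMIs were 93.6% haemoglobin at E16, gave 4.0% of 25 cells (0.101% to 20.4%). Their other UMIs, few at this depth, carried 10553 CPM of immediate early RNA (8743 to 12629) at E16 and 10120 CPM (7777 to 12948) at P4.

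For heat shock genes, 3 or more of 11 were found in 82.8% of E16 epithelial-like cells (70.6% to 91.4%) and 54.2% of mesenchyme-like cells (43.7% to 64.4%), and at P4 in 55.6% (43.4% to 67.3%) and 48.3% (40.7% to 55.9%). The intervals of the E16 classes did not overlap and those of the P4 classes did, but with thinning to 2000 UMIs the E16 intervals overlapped too (93.4% to 100% and 81.5% to 94.8%). Without thinning these shares were 98.3%, 96.9%, 90.5% and 97.2%. Erythroid-like cells of E16 gave 0 of 25.

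**Figure D5:**
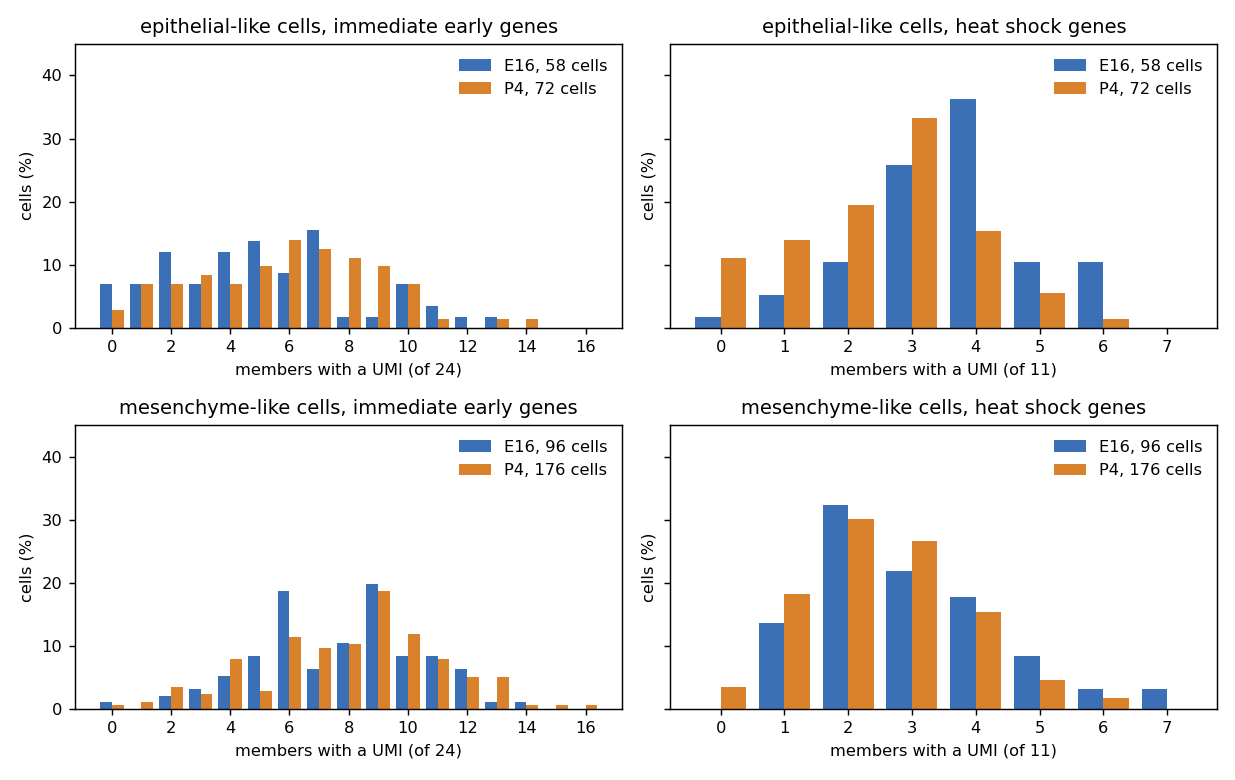
Share of cells (in percent) with a given number of members detected, after thinning each cell to 1000 UMIs, for epithelial-like and mesenchyme-like cells at E16 and P4; the 24 immediate early genes are on the left and the 11 heat shock genes on the right. Epithelial-like cells have a median of 5 and 6 immediate early genes and mesenchyme-like cells 8 and 9, and the E16 epithelial-like cells peak at 4 heat shock genes.

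Pairs of immediate early genes were detected together more often than the product of their single shares in most cases. In E16 epithelial-like cells 79 of 91 pairs lay above the product, with a median ratio of 1.31, beside 48.9% of pairs and 0.99 for all genes in the same range of detection. In P4 epithelial-like cells the values were 79 of 91 and 1.21, beside 54.7% and 1.05. When the product was taken within each cluster the medians were 1.14 and 1.09, beside 0.99 and 1.04 for all genes. Mesenchyme-like cells gave 120 of 171 pairs and 1.08 at E16, beside 48.0% and 0.98 for all genes, and 126 of 171 and 1.09 at P4, beside 49.0% and 1.0. Macrophage-like cells gave 99 of 136 and 1.10, beside 49.6% and 1.0. Pairs share genes and cells, so these counts are a description. The widest pair in E16 epithelial-like cells was Atf3 with Klf6, in 7 cells where the product gives 1.71 (ratio 4.10, or 1.59 within clusters), and in P4 epithelial-like cells the same pair was in 6 cells where it gives 2.83. Fos and Jun, the AP-1 partners, were together in 24 of 58 E16 epithelial-like cells (19.9 from the product) and 29 of 72 at P4 (23.0), and in 65 of 96 and 113 of 176 mesenchyme-like cells (62.5 and 109.0).

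Heat shock pairs lay closer to the product, above it in 12 of 21, 17 of 28, 10 of 15 and 17 of 28 cases in E16 epithelial-like, E16 mesenchyme-like, P4 epithelial-like and P4 mesenchyme-like cells, with median ratios of 1.03, 1.05, 1.08 and 1.07, beside 0.99, 0.98, 1.05 and 1.0 for all genes. Pairs of 1 gene of each kind had medians of 0.97, 1.03, 1.06 and 1.04. Across cells, the immediate early and heat shock shares of UMIs had a rank correlation of 0.03 over 58 E16 epithelial-like cells and of 0.42, 0.34 and 0.38 over 98 E16 mesenchyme-like, 74 P4 epithelial-like and 177 P4 mesenchyme-like cells. The cells of a class share a library and both shares have the cell's depth as their denominator, and the heat shock share itself had a rank correlation of 0.52 with depth in the E16 epithelial-like cells.

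Among immediate early promoters a full cyclic AMP response element, TGACGTCA, was found in Btg2 and Dusp1 and in 1.77% of all genes, and its short form TGACGT or ACGTCA, which the full element contains, in 6 of 21 immediate early genes and 7.29% of all genes. The pattern TGANTCA, looser than the AP-1 site with C or G at its middle base, was in 0 of the 21 windows and in 7.82% of all genes. The share of all genes with the narrower site was not counted. The CArG box bound by serum response factor was in Egr2 and Zfp36 and in 1.62% of all genes. Such matches describe letters on either strand and not bound sites. Fos and Dusp1 are shown as members higher in mesenchyme-like cells in both libraries, with the cyclic AMP elements in capitals.
Fos, chr12:85473750-85473889, plus strand: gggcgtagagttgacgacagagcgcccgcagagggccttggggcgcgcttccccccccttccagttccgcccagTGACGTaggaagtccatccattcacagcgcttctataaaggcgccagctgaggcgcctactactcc
Dusp1, chr17:26508520-26508659, minus strand: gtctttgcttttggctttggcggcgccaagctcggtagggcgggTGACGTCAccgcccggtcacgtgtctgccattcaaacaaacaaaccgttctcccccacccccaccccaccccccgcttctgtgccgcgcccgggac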

How the data were processed

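Single-cell RNA of pooled lacrimal glands was counted in 1 library at E16 and 1 at P4. The authors deposited raw UMI counts for each gene in each barcode, with no scaling. Cell Ranger with mm10 made them, per the submitters' processing notes, and neither version nor settings are stated there. The labels name both 10x Genomics (series title) and Drop-seq (protocol). Barcodes with at least 200 detected genes were kept. All 13 mitochondrial features were at 0 UMIs, so damaged cells could not be judged from them. Gene positions came from GENCODE M21 (GRCm38) by Ensembl identifier, and all 35 matched; RefSeq promoter windows (GRCm38.p6) matched 29. Stretches inside an annotated exon were printed over 30 bases only.

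Each cell was scaled to 10000 UMIs before a log transform. Of the genes other than the 35 members, 2000 variable ones were used for 20 principal components, 15 neighbours and Leiden clustering at resolution 1 (scanpy 1.11.5, leidenalg 0.10.2, Python 3.11.15). Clusters were named from 142 markers of 15 cell types if at least 3 were detected in 20% of cells and leading genes did not go against the name. Scrublet called 1 doublet in each library (0.386% and 0.246% of cells), and these cells were kept. So low a rate leaves doublets unjudged in cells of high UMI count.

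UMIs were summed per class and library and divided by the class total. Ratios have exact conditional intervals (scipy 1.17.1) and shares Clopper-Pearson intervals. A gene was tested with at least 30 UMIs over both groups, and called if at least 2-fold apart. With 1 library per stage, and cells not being replicates, no p-value was computed. Genes at 0 were set to a floor of 3 UMIs over the class. UMIs are not corrected for transcript length. Hspa1a and Hspa1b share reads, and Hspa8, Hsp90ab1, Hspe1 and Hspd1 have processed pseudogenes, so their counts are uncertain. In GENCODE the start sides of Hspe1 and Hspd1 overlap, on opposite strands, and an effect of this on their counts was not tested. Each of the members was named, and of each other list the 3 genes furthest in each direction could be named. The members and lists were chosen with earlier results of these data known. The steps were tested on simulated counts.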

Additional observations from a re-analysis of the deposited data

Results flagged for a closer look

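The stage ratios of Klf2, taken over whole classes, lay on opposite sides of 1 in the 2 classes compared. Its ratio of P4 over E16 was 0.354 (0.188 to 0.641) in epithelial-like cells, on 39 and 17 UMIs, and 2.73 (2.40 to 3.13) in mesenchyme-like cells. Both ratios kept their side of 1 with the genes above 1% of UMIs out of the totals, at log2 values of -1.09 and 1.47. Among the mesenchyme-like clusters, Klf2 was 651 and 698 CPM at E16 and P4 in the Kera-led, 439 and 325 in the A230065H16Rik-led, 383 and 825 in the Dcn-led and 672 and 1803 in the Mfap5-led cluster, the last with 5 and 76 cells. The difference between the classes was not tested, since each stage is 1 library.

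Nfkbia and Hspe1 each changed the class in which they stood higher. For Nfkbia the ratio of mesenchyme-like over epithelial-like cells was 1.79 at E16 and 0.831 at P4, and for Hspe1 it was 0.493 at E16 and 1.47 at P4. With the genes above 1% of UMIs out of the totals the log2 values were 0.85 and -0.63 for Nfkbia and -1.01 and 0.18 for Hspe1. Neither difference between the libraries was tested.

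Barcodes under 200 detected genes, 178 at E16 and 281 at P4, entered no comparison and also carried these genes. Haemoglobin took 95.7% and 95.4% of their UMIs. Of their other UMIs (22686 and 34186), immediate early genes took 11461 CPM (10110 to 12942) at E16 and 12256 (11111 to 13488) at P4, against 12739 and 16770 CPM, likewise outside haemoglobin, in kept cells. Heat shock genes took 2557 (1941 to 3305) and 1521 (1136 to 1995), against 5645 and 3655. Egr1 stood higher there than in kept cells, at 1675 against 520 CPM at E16 and 1375 against 674 at P4, as did Nr4a1 at P4, at 761 against 228. What part RNA of this source had in the levels of the named classes was not tested.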

How the results depend on the processing

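Over 12 alternatives for each of 8 summed ratios, 92 of 96 values stayed on the same side of 1 and 0 moved by more than 1.5 times (largest 1.47). All 4 that crossed 1 were the heat shock ratio of mesenchyme-like over epithelial-like cells at P4 (1.10): 0.854 with genes over 1% of UMIs out of the totals, 0.869 with every cell weighted equally, 0.950 with each library clustered alone and 0.768 without the Dcpp-led cluster, an alternative added after seeing the data like that of adding the Acta2- and Krt14-led cluster. It was 1.04 without its top gene. The cause was not tested. The immediate early ratio of P4 over E16 in epithelial-like cells was 1.69 with genes over 1% of UMIs out of the totals, 1.21 with every cell weighted equally, 1.21 without the top gene, 1.16 with at least 500 genes per barcode, 1.54 with each library clustered alone and 1.87 without the Dcpp-led cluster. In mesenchyme-like cells it was 1.26 with equal weights, 1.12 without the top gene, 1.16 with each library clustered alone and 1.16 with Leiden clustering at 0.5. The immediate early ratio of mesenchyme-like over epithelial-like cells at E16 was 1.73 with equal weights, 2.02 without the top cell of each group, 1.73 with at least 500 genes, 2.08 with each library clustered alone, 2.10 with Leiden clustering at 0.5, 2.01 with the members among the variable genes and 2.01 with the Acta2- and Krt14-led cluster. At P4 it was 1.43 with genes over 1% out of the totals, 1.93 without the top cells, 1.79 without the top gene, 1.57 with each library clustered alone and 1.26 without the Dcpp-led cluster. The heat shock ratio of P4 over E16 in epithelial-like cells was 0.615 with genes over 1% out of the totals, 0.647 with equal weights, 0.421 without the top gene, 0.547 with each library clustered alone and 0.664 without the Dcpp-led cluster, and in mesenchyme-like cells 0.727 without the top gene and 0.737 with each library clustered alone. The heat shock ratio of mesenchyme-like over epithelial-like cells at E16 was 0.703 with equal weights, 0.608 without the top gene, 0.705 with each library clustered alone and 0.695 with Leiden clustering at 0.5. Thinned to 2000 UMIs, the shares of cells with 3 or more immediate early genes were 90.7% of epithelial-like and 100% of mesenchyme-like cells at E16 and 93.3% of epithelial-like cells at P4, and those for heat shock genes were 100% and 89.5% at E16 and 80.0% and 82.8% at P4, so that at E16 the intervals of the classes overlapped for both sets (79.7% to 96.9% and 96.2% to 100% for immediate early genes), and at P4 the classes changed order for heat shock genes within their intervals. Depth limits the single genes: Fosl2 and Hspa1b had under 30 UMIs in each library. No paired analysis was possible because each group has 1 library.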
